A study of Mus musculus with 289 samples.

Results

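YAP (gene Yap1) and TAZ (gene Wwtr1) are transcriptional co-activators that carry no DNA-binding domain and act through TEAD factors, and they are held in the cytoplasm when the kinases LATS1 and LATS2 of the Hippo pathway phosphorylate them. In skin they are known for nuclear localization and activity in the proliferative basal layer, where cells adhere to the basement membrane, and for exclusion from the nucleus as cells move up into the suprabasal layers and differentiate. Their best known target genes code for the matricellular proteins CCN1 and CCN2 and the matrix glycoprotein thrombospondin 1 (Thbs1), for the muscle ankyrin repeat protein ANKRD1, for the receptor tyrosine kinase AXL, and for AMOTL2 and LATS2, which in turn restrain YAP and TAZ. Here Yap1, Wwtr1, Ccn1, Ccn2, Ankrd1, Thbs1, Amotl2, Tead1, Lats2 and Axl were followed as 10 genes chosen by name. Of these, 9 had a row among the 15019 genes of the count table used, and Ankrd1 was not analysed here.

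The counts came from tail epidermis, labelled as time t0, of mice (CBA C57BL/6 mixed) that carried Lrig1-EGFP-ires-CreERT2, a Cre driven from the Lrig1 locus, together with the reporter Rosa26-fl/STOP/fl-tdTomato, in which hydroxytamoxifen painted on the skin switches on tdTomato in Lrig1-expressing cells, mainly of the upper hair follicle, and all their later progeny, so the sorted tomato-positive cells are a labelled lineage and not the whole epidermis. The skin was then treated with vehicle (acetone, per the study's methods) or with PRT4165, an inhibitor of the histone H2A ubiquitin ligase activity of Polycomb repressive complex 1, and single cells were sorted into plates for full-length Smart-seq2 libraries. Of 289 cells on 4 plates, 274 passed the study's limit on mitochondrial counts, 70 and 55 cells on the vehicle plates (replicates 1 and 2) and 72 and 77 cells on the PRT4165 plates. Each plate held 1 treatment, the labels carry a further code that differs between the treatments, and the labels do not tie animals to plates (the study's methods describe several biological replicates per experiment), so treatment, code and plate cannot be told apart and the p-values measure the spread between plates. All cells, vehicle included, carried the same alleles and the same hydroxytamoxifen labelling.

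Cells were called basal-like or suprabasal-like by the higher of 2 mean z-scores, over 9 basal genes such as Krt5 and Itgb4 or over 11 suprabasal genes such as Krt1 and Krt10, and none of the 10 followed genes is in either list. This gave 160 basal-like cells among the 274, the rest being suprabasal-like, with 38, 33, 46 and 43 basal-like and 32, 22, 26 and 34 suprabasal-like cells on vehicle replicates 1 and 2 and PRT4165 replicates 1 and 2, the order used for values throughout. The classes are ranges on 1 score and not cell types, and 34 cells lay within 0.25 of the cut. Genes outside the scores were compared as a check of the names. Trp63, the master regulator of basal keratinocytes, was at 389, 611, 404 and 215 CPM (counts scaled to a common total of non-mitochondrial counts) in basal-like and at 65.7, 60.2, 57.2 and 98.8 CPM in suprabasal-like sums, and Spink5, a protease inhibitor of the upper epidermis, at 970, 176.2, 39.98 and 55.2 against 3074, 3534, 3853 and 1503 CPM. Vehicle replicate 1 was the shallowest plate, with a median of 141986 counts per kept cell against 429383 to 538754 on the other plates, and its basal-like cells were shallower still, at a median of 83739 non-mitochondrial counts. Immune and melanocyte markers were at most 4.42 CPM on any plate (Dct). Of the fibroblast markers Col1a1, Col1a2, Lum and Pdgfra were at most 4.46 CPM (Col1a2), while Dcn was at 9.26, 29.3, 111.6 and 7.73 CPM, and 19 cells, 12 of them basal-like, had a count in at least 2 fibroblast genes, while Pecam1, an endothelial adhesion gene, was counted in every kept cell, for which no cause was tested. By a separate score, 51 cells, 41 of them basal-like, were highest for sebaceous genes, and some of these were also among the 19. Sebaceous-like cells made up 10.5, 12.1, 23.9 and 51.2% of basal-like cells on the 4 plates, so that their share was higher on both PRT4165 plates.

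TEAD factors recognise the letters CATTCC, read on the other strand as GGAATG, and the 250 bases before each start site of these genes in the RefSeq promoter table were searched for both. A listed start site need not be the outermost one of its gene: the stretches of Yap1, Lats2, Axl and 1 of the start sites of Wwtr1 reached into or lay within the span of their own gene in the annotation, and that of Amotl2 lay wholly within it. The promoters of Ccn1, Yap1, Amotl2 and Ankrd1 are shown because they cover a target whose level differed most between the PRT4165 and vehicle plates, the co-activator itself, a feedback target and the target that was not analysed in the counts. They were read from RefSeq (build GRCm38.p6) in the direction of transcription, and capitals mark the searched letters.

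Ccn1 (chr3:145649986-145650235, minus strand): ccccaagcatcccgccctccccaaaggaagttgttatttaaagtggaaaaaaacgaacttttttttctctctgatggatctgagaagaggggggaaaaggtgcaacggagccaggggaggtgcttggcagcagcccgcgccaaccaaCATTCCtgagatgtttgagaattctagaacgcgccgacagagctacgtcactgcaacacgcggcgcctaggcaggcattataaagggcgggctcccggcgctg

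Yap1 (chr9:8004597-8004846, minus strand): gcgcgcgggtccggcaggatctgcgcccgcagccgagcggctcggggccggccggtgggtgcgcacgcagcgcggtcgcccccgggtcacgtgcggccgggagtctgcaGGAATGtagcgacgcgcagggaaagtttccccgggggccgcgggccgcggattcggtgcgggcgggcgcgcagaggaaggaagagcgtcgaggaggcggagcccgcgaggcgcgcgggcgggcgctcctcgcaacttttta

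Amotl2 (chr9:102717554-102717803, plus strand): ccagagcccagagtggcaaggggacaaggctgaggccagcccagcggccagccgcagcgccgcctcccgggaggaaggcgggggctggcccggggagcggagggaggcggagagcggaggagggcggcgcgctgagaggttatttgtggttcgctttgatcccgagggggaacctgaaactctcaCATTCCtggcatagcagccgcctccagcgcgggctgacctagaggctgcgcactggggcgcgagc

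Ankrd1 (chr19:36119845-36120094, minus strand): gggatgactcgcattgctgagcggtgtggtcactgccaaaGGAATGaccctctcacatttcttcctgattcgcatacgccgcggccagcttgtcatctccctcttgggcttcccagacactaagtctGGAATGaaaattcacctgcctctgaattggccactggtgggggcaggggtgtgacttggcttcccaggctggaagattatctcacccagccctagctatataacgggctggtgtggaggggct

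The match began 103 bases before the listed start site of Ccn1, 65 bases before that of Amotl2, and 210 and 123 bases before that of Ankrd1. Promoters of 7 of the 10 genes were in the table used, and 6 of these 7, Yap1, Wwtr1, Ccn1, Ankrd1, Amotl2 and Axl, held the letters in the 250 bases, while neither promoter of Lats2 did. Among all 27025 genes with a promoter, 14.36% held them, and 12.64% of 32851 single promoters did. A match of 6 letters is a description of the sequence and not a binding site, and several of these genes were named here because they are known TEAD targets. Promoters of Ccn2, Thbs1 and Tead1 are not shown.

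Thbs1 was the 1 gene of the 9 that passed the threshold between the classes, and it was lower in suprabasal-like cells. Its sums over basal-like cells were 28.9, 92.3, 94.6 and 119 CPM, and those over suprabasal-like cells were 0, 0, 0.249 and 1.31 CPM. Every basal-like sum lay above every suprabasal-like sum. With a sum of 0 replaced by a floor of 3 counts per sum, the basal-like level was at least 115-fold higher on vehicle replicate 1 and at least 344-fold higher on vehicle replicate 2, and it was 91.5-fold higher on PRT4165 replicate 2, where 20 counts were found in suprabasal-like cells. The fitted difference, suprabasal-like minus basal-like with plate as a block, was -8.18 ± 1.296 on the log2 scale (SE, 4 plates, adjusted p = 0.0330, edgeR's quasi-likelihood test with Benjamini-Hochberg adjustment over 11033 genes). In this comparison 1.69% of the genes tested were called, 0.263% on the lower side (29 genes), and 15.9% had an unadjusted p under 0.05. The call was lost without vehicle replicate 1, vehicle replicate 2 or PRT4165 replicate 1, where the adjusted p became 0.102, 0.0837 or 0.138 (edgeR) at log2 differences of -7.78, -7.43 and -8.36. It held without PRT4165 replicate 2, at -9.45 with an adjusted p of 0.0491 (edgeR). It was also lost when cells were classed by the counts of Krt1 and Krt10 against Krt5 and Krt14 (-5.65, adjusted p = 0.211), a rule that gave 237 of the 274 cells the same class.

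**Figure D1:**
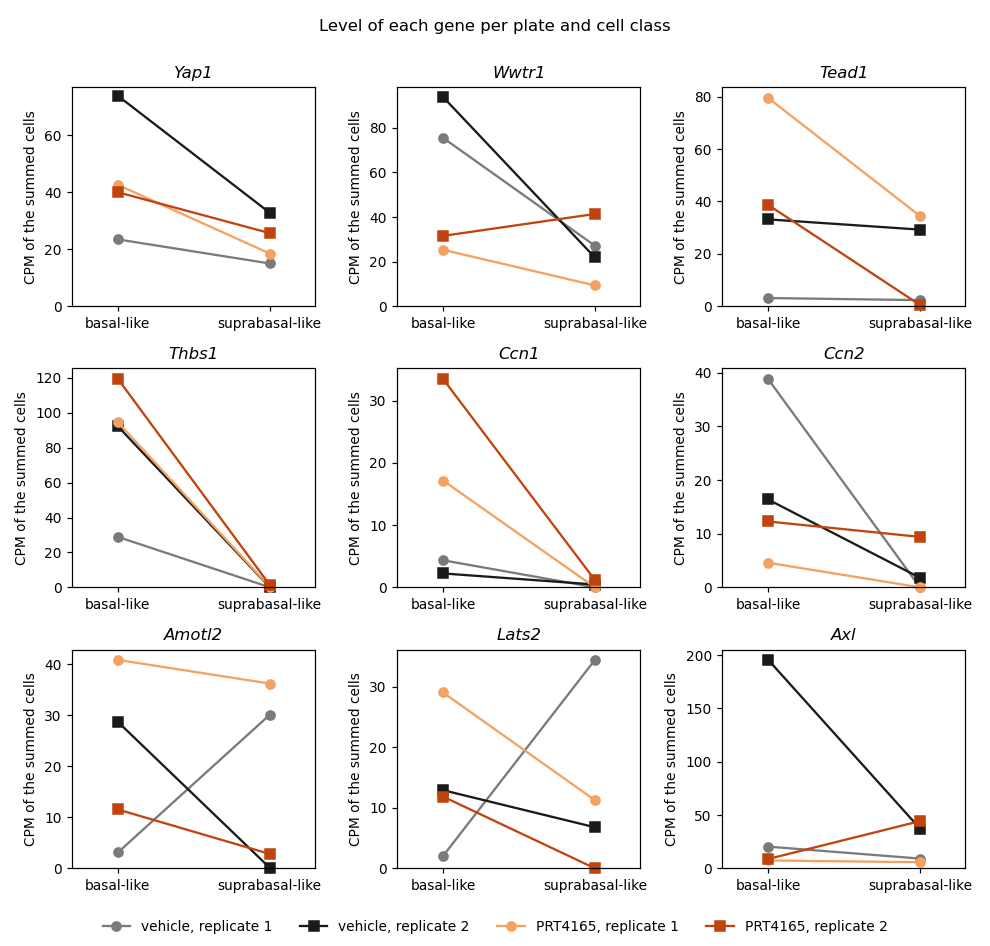
Level of each gene, in CPM of non-mitochondrial counts summed over the cells of a plate and class (vertical axis), in basal-like and suprabasal-like cells, with 1 line and colour per plate and no error bars because each point is 1 sum. The Thbs1 and Ccn1 lines drop to between 0 and 1.31 CPM in suprabasal-like cells on all 4 plates, whereas the lines of Amotl2 and Lats2 cross.

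In single cells, Thbs1 was counted in 6 of 38, 12 of 33, 17 of 46 and 24 of 43 basal-like cells and in 0 of 32, 0 of 22, 1 of 26 and 3 of 34 suprabasal-like cells. The counts of 0 allow a share of up to 9.38% and 13.6% on the vehicle plates, counting error only. Because a gene is found more readily in a deep cell, each cell was also thinned to 50000 counts, which left 246 cells, and Thbs1 was then found in 30.9% of basal-like cells (mean of 4 plates) and in 0 suprabasal-like cells on any plate. The mean difference was -30.9 ± 9.36 percentage points (SD of 4 plates), lower on 4 of 4 plates (exact paired sign-flip permutation test, two-sided p = 0.125, the smallest that 4 plates allow). Where it was found, the median basal-like cell held 24.5, 27.5, 24.0 and 13.0 Thbs1 counts, while the single suprabasal-like cell of PRT4165 replicate 1 held 3. A single cell gave 32.5 to 46.8% of each basal-like sum, so the sums lean on a few cells.

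Ccn1 and Ccn2, the matricellular targets most often used as readouts of YAP activity, were also found mainly in basal-like cells, but with wider errors. Ccn1 was at 4.35, 2.23, 17.2 and 33.5 CPM in basal-like sums and at 0, 0.447, 0 and 1.18 CPM in suprabasal-like sums, so that here too every basal-like sum exceeded every suprabasal-like sum. Such a separation was seen for 12.7% of the genes tested. The basal-like Ccn1 sums of the vehicle plates held 28 and 33 counts, from 3 and 2 cells. On vehicle replicate 2, 1 cell gave 93.9% of that sum. There Ccn1 was counted in 2 of 33 basal-like and 2 of 22 suprabasal-like cells. The fitted difference was -5.09 ± 1.75 (log2, SE, edgeR, unadjusted p = 0.0212, adjusted p = 0.215) and did not pass the threshold. Ccn2 was at 38.8, 16.4, 4.58 and 12.3 CPM against 0, 1.79, 0 and 9.40 CPM, with the PRT4165 replicate 2 sums nearly level, and differed by -4.18 ± 2.20 (edgeR, adjusted p = 0.420). After thinning, Ccn1 was found in 10.98% of basal-like and 1.95% of suprabasal-like cells, and Ccn2 in 18.2% and 6.17% (means of 4 plates). The difference for Ccn1 was -9.03 ± 8.16 percentage points (SD), lower on 3 of 4 plates, and that for Ccn2 was -11.997 ± 11.9, lower on 4 of 4 plates. By plate the Ccn2 differences were -28.6, -8.66, -10.5 and -0.233 points. On PRT4165 replicate 2, unthinned, Ccn2 was counted in 11 of 43 basal-like and 10 of 34 suprabasal-like cells. With DESeq2 in place of edgeR, Ccn1 and Ccn2 passed the threshold as well (adjusted p = 0.00104 and 0.0114), where that tool called 1841 genes, or 16.7% of those tested.

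**Figure D2:**
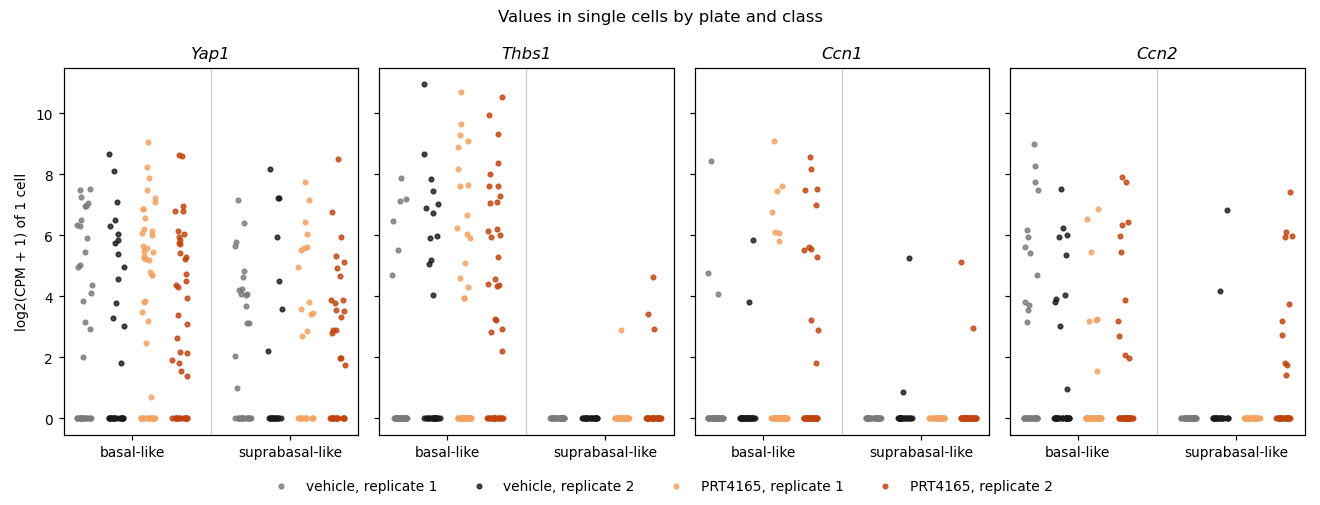
Level of Yap1, Thbs1, Ccn1 and Ccn2 in each of the 274 kept cells (1 point per cell, log2(CPM + 1) of non-mitochondrial counts), by class and plate, with sideways scatter only to part the points. Yap1 has points above 0 in both classes, whereas Thbs1 has 4 suprabasal-like cells above 0 against 59 basal-like cells.

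The co-activators themselves were spread over both classes. Yap1 was at 23.5, 73.8, 42.6 and 39.998 CPM in basal-like sums and at 15.0, 32.8, 18.5 and 25.7 CPM in suprabasal-like sums, and was counted in 19, 15, 30 and 28 basal-like and in 16, 7, 14 and 19 suprabasal-like cells. The 2 classes overlapped over plates, although the basal-like sum was the higher on each plate, as it was for 27% of the genes tested. The median gene was at -0.55 in suprabasal-like against basal-like sums on the log2(CPM + 1) scale, and scaling by TMM in the fit left a median difference over all genes of -0.14. On the fitted scale Yap1 differed by -0.31 ± 0.57 and Wwtr1 by -0.58 ± 0.67 (log2, SE, adjusted p = 0.865 and 0.754, edgeR). Wwtr1 was at 75.5, 93.8, 25.3 and 31.6 CPM in basal-like and at 27.2, 21.9, 9.36 and 41.4 CPM in suprabasal-like sums, with the classes in the opposite order on PRT4165 replicate 2. After thinning, Yap1 was found in 44.4% of basal-like and 31.5% of suprabasal-like cells and Wwtr1 in 21.2% and 16.2%, each lower in suprabasal-like cells on 4 of 4 plates, as were Ccn2 and Thbs1. Of all 14634 genes with a thinned count, 17.1% were lower in suprabasal-like cells on every plate. With unthinned counts Thbs1 alone of the 9 genes kept that order on 4 of 4 plates.

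Tead1, the DNA-binding partner, and the feedback genes did not pass the threshold between the classes. Tead1 was at 3.15, 33.2, 79.5 and 38.7 CPM in basal-like and at 2.35, 29.3, 34.5 and 0.523 CPM in suprabasal-like sums. Amotl2, an angiomotin family protein that binds YAP, was at 3.11, 28.7, 40.8 and 11.5 CPM against 30.1, 0.0893, 36.2 and 2.81 CPM, and Lats2 at 2.02, 12.9, 29.1 and 11.9 CPM against 34.5, 6.79, 11.3 and 0 CPM. For Amotl2 and Lats2 vehicle replicate 1 ran against the other plates. Axl was at 20.4, 195.7, 7.36 and 8.70 CPM against 9.14, 37.3, 5.72 and 44.3 CPM. The fitted differences of these 4 genes lay between -0.94 for Tead1 and 0.11 for Axl (SE from 0.93 to 2.01), and the sign was not the same under all alternatives for Amotl2, Lats2 and Axl. Taking the 9 genes together, 8 were lower in suprabasal-like cells, with a median difference of -0.58 against -0.14 over all genes tested, of which 54.8% were lower.

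**Figure D3:**
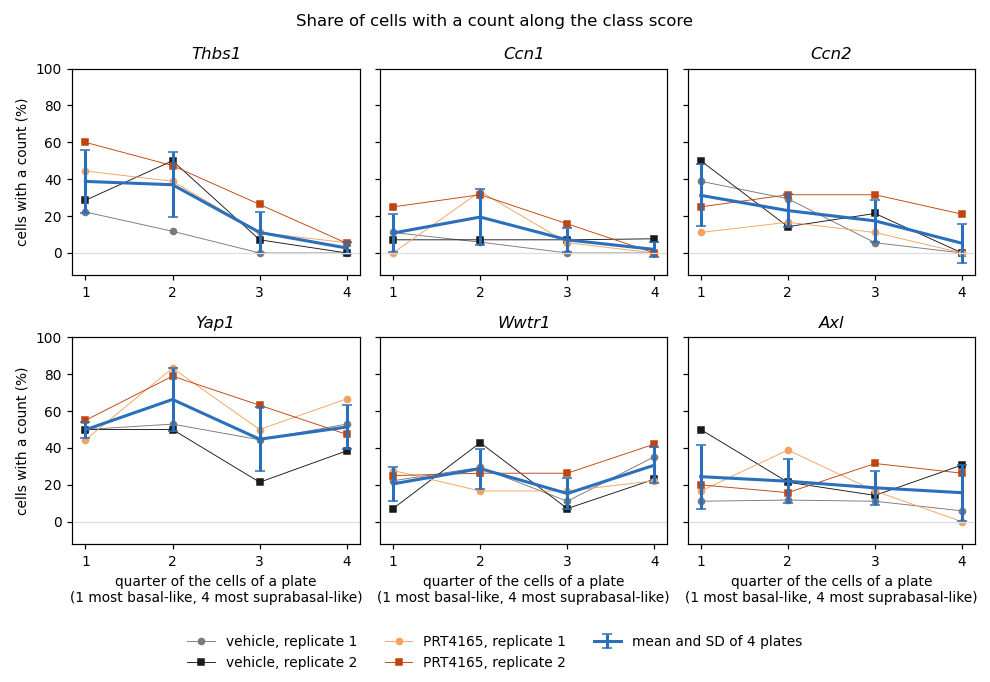
Share of cells with a count (vertical axis, %, unthinned) in 4 equal bins of the cells of each plate, ordered from the most basal-like (1) to the most suprabasal-like (4), with thin lines for the 4 plates and a thick line for their mean with SD. Thbs1 falls from 38.8% to 2.70% and Ccn2 from 31.2% to 5.26%, whereas Wwtr1 and Yap1 show no such fall.

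The same genes were followed along the score without a class boundary. With the cells of each plate ordered by the score and divided into 4 equal bins, Thbs1 was found in 38.8 ± 16.9, 37.0 ± 17.5, 11.1 ± 11.1 and 2.70 ± 3.13% of cells (mean and SD of 4 plates, from the most basal-like to the most suprabasal-like bin). Ccn1 was found in 10.8 ± 10.5, 19.5 ± 15.0, 7.12 ± 6.54 and 1.92 ± 3.85%, and Ccn2 in 31.2 ± 16.9, 23.0 ± 8.77, 17.4 ± 11.5 and 5.26 ± 10.5%. For comparison, Wwtr1 stood at 20.5, 28.8, 15.3 and 30.7% and Axl at 24.4, 22.0, 18.4 and 15.7%. Among the 34 cells near the cut, Thbs1 was found in 5 of 19 on the basal-like side and in 0 of 15 on the other.

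**Figure D4:**
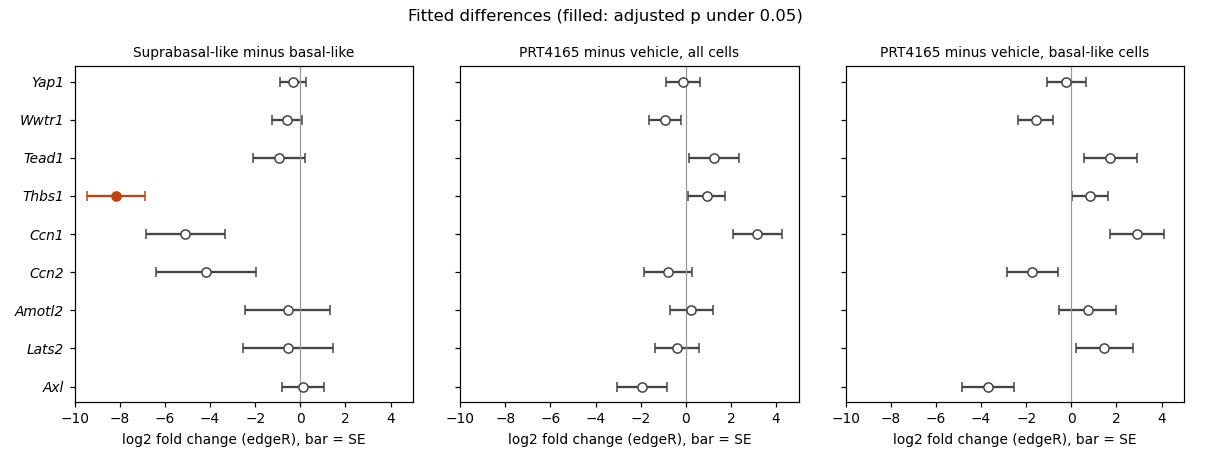
Fitted log2 difference of each gene with its SE (horizontal bars) from edgeR, for suprabasal-like against basal-like cells (left), PRT4165 against vehicle over all cells (middle) and in basal-like cells (right). Thbs1, at -8.18 between the classes, is the 1 gene past the threshold, and no gene is past it between the treatments.

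Between PRT4165 and vehicle plates no gene of the 9 passed the threshold, and neither did any of the 12791 genes tested over all cells (0% called by edgeR, 630 or 4.93% at an unadjusted p under 0.05, and 1.36% called by DESeq2). Ccn1 differed most, at 1.52 and 1.46 CPM on the vehicle plates and 9.54 and 17.1 CPM on the PRT4165 plates. Both PRT4165 plates lay above both vehicle plates, as they did for 16.3% of genes. The fitted difference was 3.17 ± 1.08 (log2, PRT4165 minus vehicle, SE, 2 plates against 2, edgeR, unadjusted p = 0.0184, adjusted p = 0.923). After thinning, Ccn1 was found in 10.5% of PRT4165 and 3.55% of vehicle cells, and Thbs1 in 21.9% and 13.5%, each higher on both PRT4165 plates, together with Tead1 and Lats2 (exact permutation test, two-sided p = 0.333, the smallest that 2 plates against 2 allow). Of all genes, 21.7% were higher and 12.6% lower on both PRT4165 plates in this measure, and 0 of the 9 were lower. Wwtr1 was at 44.1 and 62.8 CPM with vehicle and 18.2 and 36.5 CPM with PRT4165, below on both plates as for 15.7% of genes, and differed by -0.92 ± 0.71 (edgeR, adjusted p = 0.997). Yap1 was at 18.0 and 56.1 against 31.9 and 32.7 CPM, so that the vehicle plates lay on either side of the PRT4165 plates.

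Among basal-like cells, the sebaceous-like ones, whose share was higher on both PRT4165 plates, held Ccn2 less often than the others. They held Ccn1 more often on the PRT4165 plates, but not on the vehicle plates, where there were few of them. These shares were examined after the values had been seen and are given as a description. Ccn1 was counted in 14 of 41 sebaceous-like cells (34.1%) and in 10 of 119 others (8.40%). On the PRT4165 plates it was found in 4 of 11 and 10 of 22 sebaceous-like cells, and on the vehicle plates in 0 of 4 and 0 of 4. In the other basal-like cells Ccn1 was found in 3 of 34 and 2 of 29 on the vehicle plates and in 3 of 35 and 2 of 21 on the PRT4165 plates. Whether the share of sebaceous-like cells bears on the Ccn1 difference between treatments was not tested. Ccn2 had the opposite pattern, with 2 of 41 sebaceous-like cells (4.88%) against 39 of 119 others (32.8%), and it was the lower in sebaceous-like basal-like cells on each of the 4 plates. Among suprabasal-like cells, of which 10 were sebaceous-like, Ccn1 was found in 2 of these against 1.92% of the others and Ccn2 in 3 of them against 8.65%, so that the order for Ccn2 was the other way round there. Without sebaceous-like cells, an alternative chosen after seeing the data, the fitted Ccn1 difference over all cells became 1.41 ± 1.304 (log2, SE, edgeR, unadjusted p = 0.316, adjusted p = 0.9999). Without the 19 fibroblast-like cells its unadjusted p was 0.0573 (edgeR, adjusted p = 0.996). The 3 fibroblast genes tested between treatments over all cells were all higher with PRT4165 (log2 0.61 to 3.84), and 0 of them were called. In sebaceous-like basal-like cells Amotl2 was also counted more often, in 17 of 41 against 9 of 119 others. So were Yap1 (70.7 against 52.9%), Thbs1 (48.8 against 32.8%), Tead1 (31.7 against 15.1%), Axl (26.8 against 19.3%) and Lats2 (14.6 against 10.9%). Wwtr1 was not (22.0 against 24.4%). All these shares were pooled over plates on unthinned counts, and were not set against those of all genes.

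Within basal-like cells, Ccn1, Thbs1 and Tead1 were higher and Wwtr1, Ccn2 and Axl lower on both PRT4165 plates, orders that 17.8% and 15.6% of genes showed. For Thbs1 vehicle replicate 2 and PRT4165 replicate 1 were nearly level, at 92.3 and 94.6 CPM. On PRT4165 replicate 1, 1 cell gave 81.2% of the Tead1 counts. Again 0% of 12024 genes were called by edgeR (637 or 5.3% at an unadjusted p under 0.05), and 1.36% by DESeq2. The Axl difference was -3.70 ± 1.16 (log2, SE, edgeR, unadjusted p = 0.0129, adjusted p = 0.856), and it turned on vehicle replicate 2, where 1 cell gave 70.5% of the Axl counts. Without that plate it was -1.43, and over all cells the Axl difference turned from -1.94 to 0.30. Wwtr1 differed by -1.58 ± 0.78 in basal-like cells (edgeR, unadjusted p = 0.0775, adjusted p = 0.961), where 1 cell gave 68.3% and 62.7% of the counts on the vehicle plates. Yap1 differed by -0.22 ± 0.87 in basal-like cells and by -0.02 ± 1.06 in suprabasal-like cells (SE), errors larger than the differences. In suprabasal-like cells Ccn1 and Thbs1 were too low to test, and 0 of the 7 genes tested passed an unadjusted p of 0.05 (0% of 10367 genes called by edgeR, 502 or 4.84% at an unadjusted p under 0.05, 1.7% called by DESeq2). The PRT4165 effect was also compared between the classes, and 0% of 12709 genes were called (edgeR, 431 or 3.39% at an unadjusted p under 0.05, 1.05% called by DESeq2). Thbs1 had the smallest p of the 9 there, at 5.48 ± 2.23 (edgeR, unadjusted p = 0.0501, adjusted p = 1), a value that rests on suprabasal-like sums of 0, 0, 3 and 20 counts and turned negative on thinned cells.

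**Figure D5:**
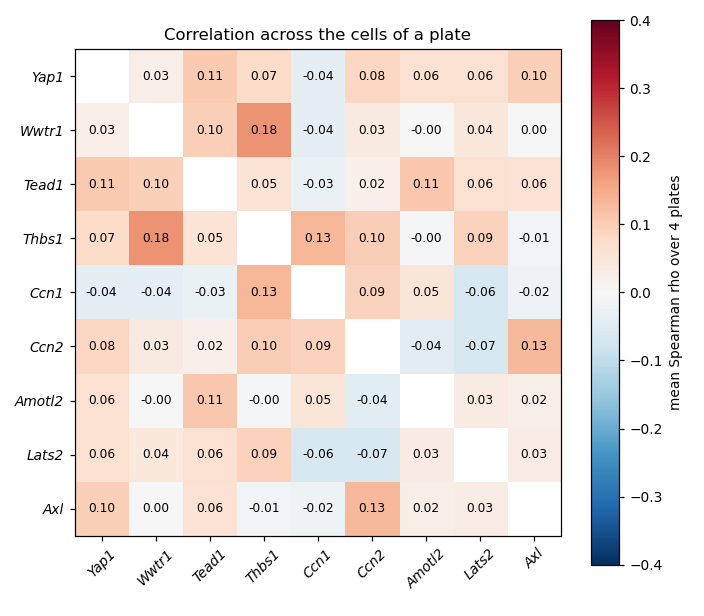
Spearman correlation between each pair of the 9 genes over single cells (mean of the values within 4 plates, log2(CPM + 1)), shown by colour. The values lie between -0.065 for the lowest and 0.181 for Wwtr1 with Thbs1, the highest pair.

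The targets were not found together in the same cells to any large extent. Over the 15 pairs of target genes the median Spearman correlation, averaged within the 4 plates over 274 cells, was 0.029, with a range from -0.065 to 0.133, and 1 pair was above 0 on all 4 plates. Cells of a plate share a library preparation and differ in depth, and in counts this sparse such values are a description only. After thinning the median was 0.054. Within basal-like cells it was -0.015 with unthinned and 0.0095 with thinned counts. Ccn1 and Thbs1 had the highest target pair value, at 0.190, -0.146, -0.0756 and 0.562 on the 4 plates. Thbs1 was found in 14 of the 28 Ccn1-positive cells and in 19.9% of the others. Both genes were found mainly in basal-like cells. Within that class Thbs1 was found in 12 of 24 Ccn1-positive cells and in 34.6% of the others, at a mean correlation of 0.066. Wwtr1 with Thbs1 reached 0.181 (0.0985, 0.286, 0.282 and 0.0561 by plate), with 23 cells holding both where independent counts would give 15.2. Yap1 was at -0.040 with Ccn1, and 15 cells held both against 15.1 by independent counts. At least 2 targets were found in 60 of 160 basal-like cells (37.5%) and in 16 suprabasal-like cells (14.0%), or in 30.4% and 6.48% after thinning. By plate the unthinned basal-like shares were 15.8, 42.4, 30.4 and 60.5%, and 11 of the 16 suprabasal-like cells were on PRT4165 replicate 2. No number by independent counts was set beside these shares. The mean z-score over the targets followed the basal minus suprabasal score at a mean correlation of 0.41 over all cells, above 0 on 4 of 4 plates, beside 0.13 with Yap1, 0.10 with Tead1 and 0.08 with Wwtr1, and 0.22 with the number of genes detected. Within basal-like cells the value with the score was 0.19 (4 of 4 plates above 0), and with Yap1, Tead1 and Wwtr1 it was 0.04, 0.07 and 0.09. Within suprabasal-like cells it was 0.07 with the score (2 of 4 plates above 0), below 0.12 with Yap1 and 0.12 with Tead1.

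Other genes of the pathway were counted from lists, and 0 of them passed the threshold in either comparison. Of 24 upstream Hippo genes, 21 were tested between the classes, 10 higher and 11 lower in suprabasal-like cells, with a median of -0.28 against -0.14 over all genes. The 4 with an unadjusted p under 0.05 were lower, a range of p that 8.02% of genes reached on that side. Their names were taken after the values were seen. Ajuba, a LIM protein that binds LATS kinases, was at 62.6, 47.2, 49.95 and 40.1 CPM in basal-like and 1.93, 10.3, 2.19 and 5.30 CPM in suprabasal-like sums. Limd1, of the same family, was at 9.01, 32.9, 368 and 70.3 CPM against 1.34, 3.22, 12.8 and 6.27 CPM, and the others were Ptpn14, a phosphatase that binds YAP, and Fat1, a protocadherin. Each of the Ajuba and Ptpn14 basal-like sums lay above every suprabasal-like sum, an order that 12.7% of the genes tested showed. Of the 7 TEAD and VGLL genes 4 were tested, and Vgll3, a TEAD cofactor, was at 205, 106, 12.7 and 14.4 CPM in suprabasal-like and 1.71, 0.0677, 0 and 6.203 CPM in basal-like sums (log2 difference 7.58 ± 1.90, edgeR, adjusted p = 0.114). Of 18 further targets 14 were tested, 7 higher and 7 lower, with a median of -0.56. Among them Areg, an EGF receptor ligand, and F3, tissue factor, were higher and Cavin2, a caveolar protein, lower in suprabasal-like cells at an unadjusted p under 0.05, which 15.9% of all genes reached. Between PRT4165 and vehicle, 22, 5 and 17 genes of the lists were tested, and Limd1 (3.37), Vgll3 (-3.51) and Crim1 (2.54) had an unadjusted p under 0.05, which 4.93% of all genes reached.

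The genes whose levels over single cells were most like that of Yap1 were Uqcrc2 (mean within-plate Spearman correlation 0.322), Ubr4 (0.311), Zcchc17 (0.310), Pabpc1 (0.308) and Gapdh (0.306), out of 5124 genes counted in at least 25% of cells. The median gene stood at 0.0934 with Yap1 and the 95th percentile at 0.210. For Thbs1 the closest were Gja1 (0.388), the gap junction gene, Agrn (0.377), a basement membrane proteoglycan, Cbr2 (0.368), Slc38a2 (0.368) and Lmo4 (0.366), against a median of 0.0589 and a 95th percentile of 0.202. Both rankings were made over basal-like and suprabasal-like cells together, on unthinned counts, and not within a class. They therefore do not part likeness between genes from a shared difference between the classes or in depth.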

How the data were processed

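Single tomato-positive cells from 4 plates (2 vehicle, 2 PRT4165) were sequenced by Smart-seq2, and the authors deposited estimated counts per gene and cell, made with Salmon 0.13.1 on Ensembl transcripts of mouse build GRCm38, of which 18.3% of values above 0 were not whole. Cells with at least 1000 genes and at most 50% mitochondrial counts were kept. Counts were summed per plate and class, rounded, and tested with edgeR 4.0.16 (TMM scaling, quasi-likelihood, R 4.3.3) with Benjamini-Hochberg adjustment at 0.05. Plate was a block between classes. CPM were scaled by the non-mitochondrial counts of a sum or cell, with a pseudocount of 1 where logged. Cells were thinned to 50000 counts for shares, with exact permutation tests over plates. Intervals and limits of 0 cover counting error only. DESeq2 1.42.0, limma 3.58.1, other scaling, filters, classes, cells left out and each plate left out were alternatives. The procedure was tested on simulated data. Vehicle and PRT4165 plates share the replicate numbers 1 and 2 under a batch label, and the deviations of same-numbered plates correlated at 0.02065 over 12791 genes. All 10 genes were described whatever their values. Of the other lists, genes past the threshold were to be named, and the 5 genes most like Yap1 and Thbs1. The genes and lists were chosen with earlier results of these data known.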

Additional observations from a re-analysis of the deposited data

Results flagged for a closer look

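Of 18 sets of 4 plates examined for a plate far from the others, 1 stood out, where chance gives about 1 in 20. Axl, the receptor tyrosine kinase, was at 195.7 CPM in basal-like cells of vehicle replicate 2, while the other 3 plates lay between 7.36 and 20.4 CPM. The gap to the nearest plate was 0.931 of the whole range, above Dixon's critical value for 4 values, and 1 cell gave 70.5% of the Axl counts in that sum.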

How the results depend on the processing

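The share of tested genes called depended on the tool. DESeq2 called 1.36% between treatments over all cells, 16.7% between classes, 1.05% for the difference of effects, 1.36% in basal-like and 1.70% in suprabasal-like cells, and limma on mean log values called 0.133%, 18.4% and 0.0333% over all cells, between classes and in basal-like cells, where edgeR called 0%, 1.69%, 0%, 0% and 0%. DESeq2 and limma each called 3 of the 9 genes between classes (Thbs1, Ccn1 and Ccn2), and DESeq2 called 1 (Axl) in basal-like cells. Classes by keratin counts left 0.336% and 0 of the 9. Leaving out 1 plate at a time gave 0.315 to 0.866% and 0 to 1 of the 9 between classes, 0 to 0.163% in basal-like and 0 to 0.226% in suprabasal-like cells. The number of the 9 genes found in fewer cells on both PRT4165 plates was 0, 1 when thinned to 20000 counts, and 0 to 2 without 1 plate, and the number lower in suprabasal-like cells on every plate fell from 4 to 1 with unthinned counts. Thbs1 kept its direction between classes in 14 of 14 alternatives (-9.78 to -2.25).

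Signs turned for small differences (log2). Between treatments, Yap1 was 0.41 on thinned cells, 0.28 without fibroblast-like cells, 0.67 with limma and -0.68 to 0.75 without 1 plate, Wwtr1 0.052 with limma, and Amotl2 -0.020 with all cells and -1.31 to 0.99 without 1 plate. Lats2 was 0.032 thinned, 0.12 with limma and without sebaceous-like cells (0.118), and -1.48 to 0.47 without 1 plate, and Axl -3.38 to 0.30, the highest without vehicle replicate 2. Between classes, Amotl2 was -2.05 to 0.84 without 1 plate, Lats2 0.44 without cells near the cut, 0.31 without sebaceous-like cells and -2.00329 to 0.83 without 1 plate, and Axl -0.19 thinned, -0.036 without cells near the cut, -0.27 by keratin counts, -0.18 with limma and -0.71 to 0.81 without 1 plate. The difference of effects for Thbs1 was -1.11 thinned and -0.996 with limma. The cause was not tested. With a replicate block in the treatment fit, 0 genes were called as without it, Yap1 was 0.027, Amotl2 -0.14 and Ccn1 3.10 (edgeR, adjusted p = 0.999), and the block changed no other call.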
